A study of Mus musculus with 18 samples.

Results

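The subunits of oxidative phosphorylation were followed in 3 glands (lacrimal, meibomian and submandibular) of castrated male mice with and without testosterone. They were taken as every array probe whose gene symbol names a subunit of respiratory complexes I to V or cytochrome c (symbols starting with Nduf, Uqcr, Cox4 to Cox8 or Atp5, and Sdha to Sdhd, Cyc1 and Cycs). This gave 57 of 10500 probes, each for a different gene, and 56 of them were among the 7463 probes bright enough on enough arrays to be tested. The testosterone groups were lacrimal, meibomian and submandibular glands of orchiectomised BALB/c males that carried a testosterone pellet for 21 days, and the placebo groups were the same glands of orchiectomised BALB/c males with a placebo pellet for 21 days. All mice had thus lost their testes, and an intact group is not analysed here. Each of the 6 groups had 3 arrays, and each array held RNA pooled from 10 glands of 5 animals, named pool A, B or C. A count of 4 animals for each sex in an experiment also stands in the labels. Whether pools that share a letter across glands came from shared mice is not stated, and neither are ages.

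In the inner mitochondrial membrane, complex I takes electrons from NADH and complex II takes them from succinate. Complex III passes them to cytochrome c, a small mobile carrier, and complex IV passes them on to oxygen, while complexes I, III and IV pump protons. Complex V, the ATP synthase, lets the protons flow back and makes ATP. All the genes described here lie in the nucleus. Some subunits of complex IV also exist in a form made chiefly in striated muscle and brown fat, Cox6a2, Cox7a1 and Cox8b, while Cox6a1, Cox7a2 and Cox8a are the forms found in most tissues. Of the glands, the lacrimal makes the aqueous portion of the tear film, the meibomian adds lipid to it from within the eyelid, and the submandibular is a salivary gland.

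Complexes were assigned by gene symbol alone. Complex I, taken as every Nduf symbol (Ndufa4 among them), had 23 probes, of which 22 were tested. The exception was Ndufab1, the acyl carrier subunit, at 0.239 to 0.641 over the 18 arrays, where the array medians were 0.929 to 0.952. Complex II had 3 probes (Sdha, Sdhb and Sdhc), complex III 3 (Uqcrb, Uqcrfs1 and Cyc1), cytochrome c 1, complex IV 15 and complex V 12, all tested. The matches included 4 that are not structural subunits, namely the complex I assembly factors Ndufaf2, Ndufaf3 and Ndufaf7 and the supercomplex factor Cox7a2l, and 1 lung form, Cox4i2. Of the 56 tested probes, 43 lay in the brightest 10% of all tested probes.

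Intensities below are on the deposited linear scale. Differences are log2 testosterone minus placebo ± SE, after an offset of 0.174 was added to each value, over 3 pools in each group unless stated, and adjusted p-values are limma's after Benjamini-Hochberg adjustment over all 7463 probes, with a threshold of 0.05. Because the RNA came from whole glands, fewer cells of a type and less RNA per cell cannot be told apart. Sebocyte genes (5 probes) summed to 209 to 247 in testosterone and 172 to 184 in placebo meibomian pools, against 11.5 to 29.96 over the other 12 pools, and acinar genes (5 probes) summed to 674 or more in every lacrimal and submandibular pool, to 7.45 to 9.31 in the testosterone and to 10.5 to 11.8 in the placebo meibomian pools. The meibomian arrays had a narrower range, with maxima of 134.6 to 219 against 597 to 1042 on the other arrays. In 9 of the 56 probes (16.1%, against 6.58% of all tested probes) 1 pool lay at least 4-fold below both other pools of its group, as in Ndufa4 in submandibular testosterone pool A (0.897, against 84.4 and 99.6 in pools B and C) and in Cox7a2 in submandibular placebo pool C (1.05, against 89.8 and 88.1 in pools A and B). The source of these isolated values was not tested. They leave the fold change of those 9 genes with a wide error: Ndufa4 differed by -2.15 ± 1.11 and Cox7a2 by 2.13 ± 1.04 in the submandibular gland, and neither passed the test (adjusted p = 0.224 and 0.2). The other 7 were Atp5a1 (lacrimal placebo pool C), Cox7c (meibomian testosterone pool C), Cox6a2 (submandibular placebo pool C), Ndufa10 (submandibular testosterone pool A), and Ndufa9, Ndufb8 and Sdhb (submandibular testosterone pool C). Ndufa9 in meibomian placebo pool A and Ndufb10 in meibomian placebo pool B had no value, which left 2 pools in that group.

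The promoters of the 5 genes with the largest called changes under testosterone are shown first, to set the factor motifs they hold beside those changes. RefSeq promoter windows (GRCm38.p6, 250 bases before to 50 bases after a gene's start) matched 48 of the 57 genes. They were searched on both strands for the NRF1 motif core CGCANGCG and a longer form of it (NRF1 binds many genes of the respiratory chain), the ETS motif CCGGAAG of factors such as GABP, the YY1 motif AAGATGGC, the ERR motif TCAAGGTCA, the TATA box TATAAA, and the motifs of the androgen receptor (a palindrome) and of MEF2, a muscle factor. Capitals mark a match to any of these on either strand, and each window reads 5′ to 3′ on the gene's own strand.
Cox8b, chr7:140900397-140900696, minus strand: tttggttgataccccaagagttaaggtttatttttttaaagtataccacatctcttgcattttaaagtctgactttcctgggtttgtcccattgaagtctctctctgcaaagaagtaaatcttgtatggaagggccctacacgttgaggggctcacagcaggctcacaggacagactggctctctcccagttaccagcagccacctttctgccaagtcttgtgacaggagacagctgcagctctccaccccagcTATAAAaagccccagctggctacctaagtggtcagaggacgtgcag
Cox7a1, chr7:30183921-30184220, plus strand: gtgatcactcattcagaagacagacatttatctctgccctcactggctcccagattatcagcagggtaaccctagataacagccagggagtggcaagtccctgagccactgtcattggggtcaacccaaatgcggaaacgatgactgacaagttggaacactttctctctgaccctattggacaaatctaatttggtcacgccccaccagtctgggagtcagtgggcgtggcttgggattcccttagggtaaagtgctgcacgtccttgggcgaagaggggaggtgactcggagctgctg
Atp5j, chr16:84834927-84835226, minus strand: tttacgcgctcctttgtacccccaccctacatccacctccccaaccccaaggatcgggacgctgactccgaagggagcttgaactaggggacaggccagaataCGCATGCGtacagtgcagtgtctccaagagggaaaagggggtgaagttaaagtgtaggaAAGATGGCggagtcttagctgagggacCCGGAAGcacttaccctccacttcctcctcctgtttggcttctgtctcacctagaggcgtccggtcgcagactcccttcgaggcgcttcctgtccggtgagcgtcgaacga
Cycs, chr6:50566520-50566819, minus strand: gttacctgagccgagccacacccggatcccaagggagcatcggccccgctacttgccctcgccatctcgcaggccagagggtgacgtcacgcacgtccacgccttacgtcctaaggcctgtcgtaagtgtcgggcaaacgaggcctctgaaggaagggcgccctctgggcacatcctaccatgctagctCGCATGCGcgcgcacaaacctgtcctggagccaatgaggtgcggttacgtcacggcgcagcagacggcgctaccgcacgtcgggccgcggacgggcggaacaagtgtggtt
Cox8a, chr19:7217567-7217866, minus strand: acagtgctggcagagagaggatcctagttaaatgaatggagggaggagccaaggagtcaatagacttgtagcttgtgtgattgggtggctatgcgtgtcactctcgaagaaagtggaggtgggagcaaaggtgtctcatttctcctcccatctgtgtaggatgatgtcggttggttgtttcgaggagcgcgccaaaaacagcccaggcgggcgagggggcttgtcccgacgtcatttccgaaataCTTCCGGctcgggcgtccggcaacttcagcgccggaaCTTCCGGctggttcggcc
The Cox8b window held TATAAA and no other of these motifs, and the Cox7a1 window held none of them. The Atp5j window held the NRF1 core, AAGATGGC and CCGGAAG, the Cycs window the NRF1 core, and the Cox8a window CCGGAAG in 2 places (as CTTCCGG). A second start of Atp5j in RefSeq, with its own window, held none.

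Over the 48 genes with a window, the NRF1 core stood in 16 (33.3%, against 9.22% of the 27025 genes in the RefSeq table), the longer NRF1 form, which contains that core, in 9 (18.8%, against 5.19%), CCGGAAG in 9 (18.8%, against 9.93%) and AAGATGGC in 8 (16.7%, against 3.19%). TATAAA stood in 5 (10.4%, against 15.7%), the MEF2 motif in 1, that of Cox5b (2.08%, against 4.23%), and the ERR and androgen receptor letters in 0 (against 0.466% and 0.0111%). These are counts of letters in a 300-base window and no measure of binding.

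In the lacrimal gland testosterone was followed by a rise of 4 of the 56 subunit probes and a fall of 3: 1 rise and 1 fall in complex I, 1 rise in cytochrome c, 2 rises in complex IV and 2 falls in complex V. That is 12.5% of the members, against 28.1% of all tested probes (percent called, 13.3% higher and 14.8% lower). The median difference over the members was -0.09, beside -0.07 over all tested probes, and 35 of the 56 lay below 0. Pools of both groups did not overlap for 16 members, which is 28.6% against 39.7% of all tested probes. Of these 4 were higher (7.14%, against 18.2%) and 12 lower (21.4%, against 21.5%). The 5 acinar probes summed to 799, 679 and 674 in the testosterone pools and to 1226, 1099 and 1043 in the placebo pools. Their median difference was -0.24, with 1 of 5 called lower (Car6, -1.01), which is 20% beside 14.8% of all tested probes. The part of acinar cells in the subunit changes was not tested.

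Cycs, cytochrome c itself, had intensities of 68.1, 69.6 and 51.3 in the lacrimal testosterone pools A, B and C, against 34.96, 33.5 and 37.8 in the placebo pools. All 3 testosterone pools lay above all 3 placebo pools, and the difference was 0.82 ± 0.16, or 1.76-fold (adjusted p = 0.000957). Cox8a, the common form of a small complex IV subunit, had 40.9, 37.6 and 40.3 in the testosterone pools, against 21.4, 21.4 and 25.8 in the placebo pools. It rose by 0.79 ± 0.12, or 1.73-fold (adjusted p = 8.01e-05), with no overlap. Both calls held under all 35 alternative settings, among them other member sets, which leave the fit of a single gene unchanged.

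Ndufa1, an accessory subunit in the membrane arm of complex I, rose by 0.49 ± 0.17 (adjusted p = 0.0363), with 35.1, 35.8 and 33.3 in the testosterone pools and 24.9, 23.8 and 25.4 in the placebo pools. The pools were well apart, but the call was lost when any 1 of the 6 lacrimal arrays was left out (adjusted p up to 0.0975). Cox7a1, the muscle form, was dim here, with 0.739, 0.497 and 0.677 in the testosterone pools and 0.367, 0.422 and 0.340 in the placebo pools, all 3 placebo values below the 40th percentile of their array. Its rise of 0.55 ± 0.17 (adjusted p = 0.0242) depended on the offset, with 0.31 and no call at a 4-fold larger one (adjusted p = 0.118), and was 0.92 after quantile normalization over all arrays. It also lost its call in the lacrimal arrays fitted alone, with array weights, and without placebo pool A or C or testosterone pool A or C. Fat marker sums differed in the same lacrimal pools. The 7 brown fat probes summed to 4.97, 5.87 and 5.34 in the testosterone pools and to 3.21, 3.02 and 3.32 in the placebo pools. Of 5 tested, 1 was called higher (Cidea, 1.85), which is 20% beside 13.3% of all tested probes. Ucp1 overlapped, at 0.207 to 0.447 in the testosterone pools and 0.173 to 0.552 in the placebo pools. The 5 white fat probes summed to 9.70, 11.2 and 7.31 in the testosterone pools and to 18.6, 14.5 and 17.8 in the placebo pools. Of these 2 were called lower (Lpl and Retn), which is 40% beside 14.8% of all tested probes. The part of fat in the rise of Cox7a1 was not tested.

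The 3 falls in the lacrimal gland were led by complex V. Atp5j, which encodes coupling factor 6 of the stalk that joins the ATP synthase's membrane and matrix sectors, had 45.7, 32.1 and 27.9 in the testosterone pools, against 59.3, 66.6 and 70.7 in the placebo pools. The pools were apart and the fall was -0.92 ± 0.17 (adjusted p = 0.000623). Atp5l, the membrane subunit g, had 48.8, 36.8 and 31.6 in the testosterone pools, against 55.1, 61.0 and 60.5 in the placebo pools. Its difference was -0.61 ± 0.17 (adjusted p = 0.0131), and without testosterone pool C, the lowest, it was not called (adjusted p = 0.0708). Ndufa5, a subunit of the complex I arm in the matrix, had 5.79, 5.57 and 4.80 in the testosterone pools and 8.68, 7.12 and 6.83 in the placebo pools. Its difference of -0.47 ± 0.16 (adjusted p = 0.0343) lost its call without placebo pool A or B or testosterone pool B or C.

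**Figure D1:**
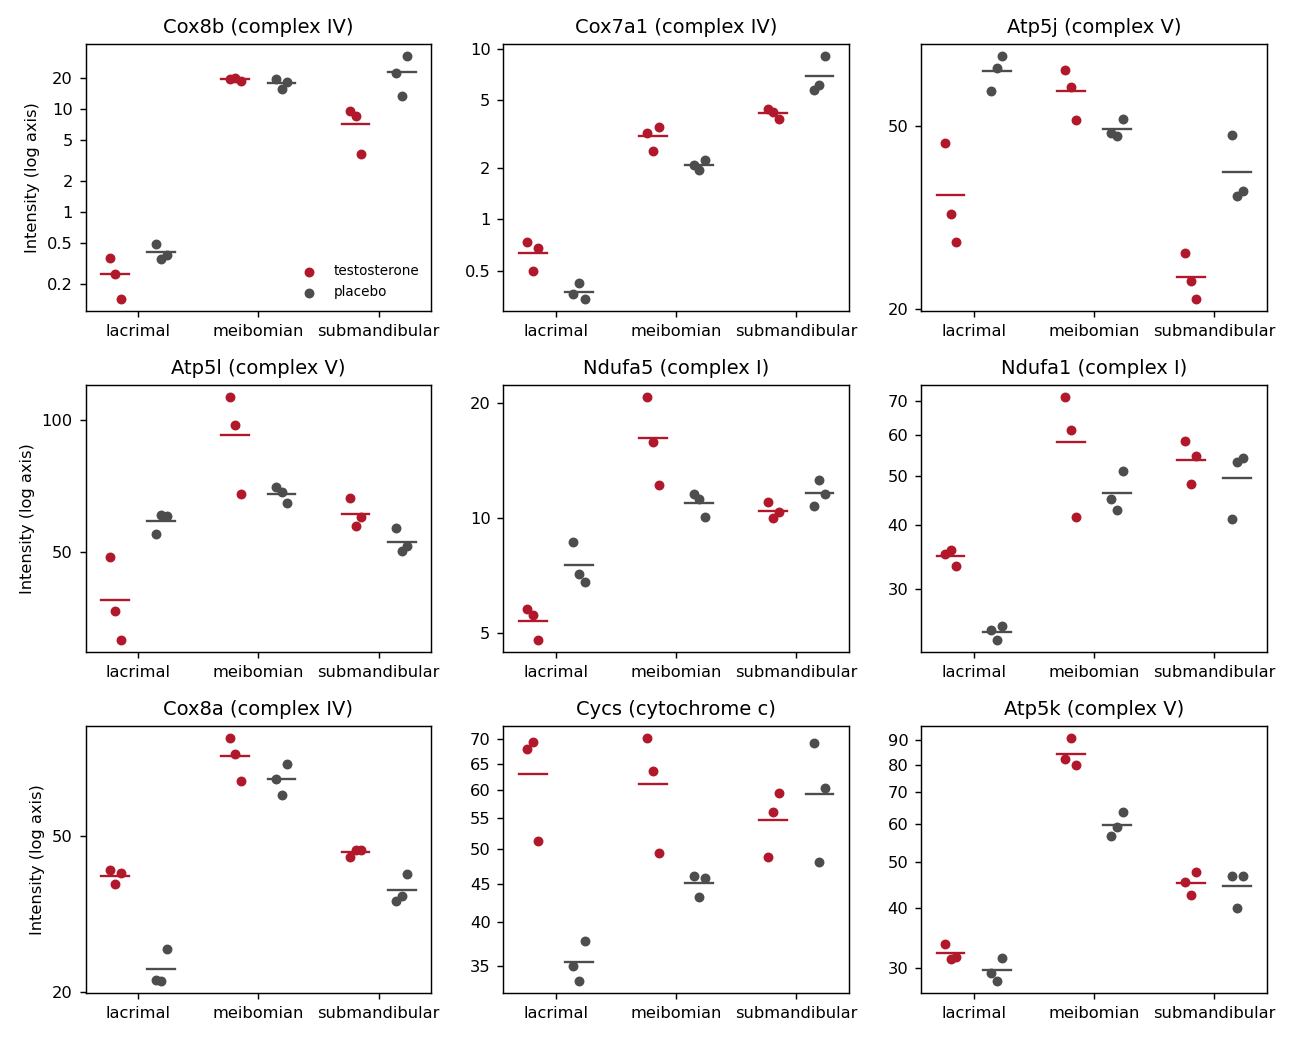
Intensity (log axis) of the 9 probes called in at least 1 gland under testosterone, in each pool of the lacrimal, meibomian and submandibular glands, with testosterone pools in red left of placebo pools in grey and a line at each mean (n = 3 pools). Cycs and Cox8a are higher and Atp5j, Atp5l and Ndufa5 lower with testosterone in the lacrimal gland, Cox8b, Cox7a1 and Atp5j are lower in the submandibular gland, and Atp5k is higher in the meibomian gland.

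The other 10 tested complex V probes showed no called change in the lacrimal gland. Atp5b, the catalytic beta subunit, had 27.4, 26.8 and 32.4 in the testosterone pools and 23.6, 38.6 and 34.8 in the placebo pools. These overlapped, as did the pools for Atp5g1 and Atp5g2, whose protein forms the rotating ring in the membrane (-0.12 and -0.18). Complex II and complex III had no called member: the differences were 0.10 for Sdha, -0.27 for Sdhb, 0.15 for Sdhc, -0.15 for Cyc1, -0.05 for Uqcrfs1 and -0.01 for Uqcrb. Ndufa3, another accessory subunit of complex I, stood just past the threshold, with 22.6, 23.0 and 26.9 in the testosterone pools, against 30.8, 36.5 and 31.9 in the placebo pools (-0.45 ± 0.16, adjusted p = 0.0504).

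**Figure D2:**
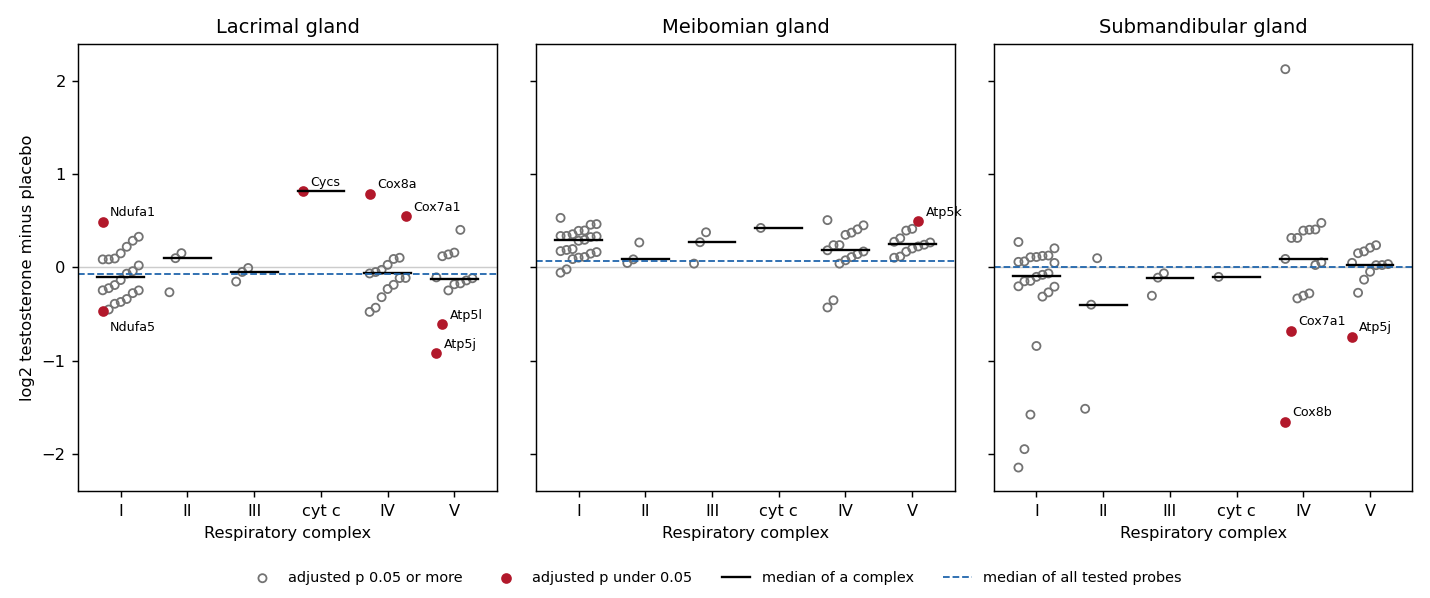
The log2 testosterone minus placebo difference of each of the 56 tested probes by respiratory complex (cyt c, cytochrome c) in each gland, with called probes filled and named, the median of each complex as a black line and the median of all 7463 tested probes as a dashed line. Most members lie near the dashed line in the lacrimal and submandibular glands and above it in the meibomian gland, where 52 of 56 are above 0.

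In the submandibular gland 3 of the 56 members fell with testosterone and 0 rose (5.36%, against 13.8% of all tested probes, 8.54% higher and 5.25% lower). Of the 3, 2 were muscle forms of complex IV and the other was Atp5j. At an unadjusted p under 0.05 there were 10 members in all (17.9%, against 27.4%). The median over the members was -0.01, beside 0.01 over all tested probes, and 28 of 56 lay above 0. Pools did not overlap for 14 members (25%, against 28.8%). Of these 7 were higher (12.5%, against 16.5%) and 7 lower (12.5%, against 12.3%). Complex IV held 5 of the 7 higher ones and 3 of the 7 lower ones. The 5 higher ones were common subunits (Cox5a, Cox6a1, Cox6b1, Cox7c and Cox8a, at 0.32 to 0.48, none called).

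Cox8b, the muscle and brown fat form of subunit 8, had 9.504, 8.49 and 3.70 in the submandibular testosterone pools, against 22.6, 13.5 and 32.6 in the placebo pools. Every testosterone pool lay below every placebo pool, and the fall was -1.66 ± 0.32, 3.15-fold (adjusted p = 0.0021). Cox7a1, the muscle form of subunit 7a, had 4.46, 4.27 and 3.89 in the testosterone pools, against 5.74, 6.11 and 9.06 in the placebo pools. It fell by 0.68 on the log2 scale (SE 0.17, adjusted p = 0.0145), with no overlap. Both calls were lost when the submandibular arrays were fitted alone (adjusted p = 0.0826 and 0.0974), and that of Cox7a1 also without placebo pool C or testosterone pool C. The third muscle form, Cox6a2, had 0.715, 1.02 and 0.872 in the testosterone pools and 1.15, 0.996 and 0.136 in the placebo pools, with no call (0.40, adjusted p = 0.569), and a difference of -0.26 once the isolated low placebo value was read as missing.

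The common counterparts Cox8a and Cox6a1 were not called lower. Cox8a had 44.2, 46.0 and 46.0 in the submandibular testosterone pools, against 34.2, 35.2 and 40.05 in the placebo pools (0.32 ± 0.12, adjusted p = 0.0888). Cox6a1 had 278, 248 and 247 in the testosterone pools, against 214, 193 and 213 in the placebo pools (0.32 ± 0.17, adjusted p = 0.229). For both the pools were apart and higher with testosterone, but neither passed the test.

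Markers of other cell types moved beside the muscle forms. Of 20 tested skeletal muscle genes 4 (20%, beside 5.25% of all tested probes) were called lower with testosterone in the submandibular gland (Atp2a1, Ckm, Tnnt3 and Pvalb) and 0 higher. The 23 muscle probes summed to 13.3, 12.3 and 11.3 in the testosterone pools and to 27.2, 14.7 and 18.9 in the placebo pools, and to 270 to 355 in the meibomian pools. The 5 white fat probes summed to 64.5, 67.6 and 69.6 in the testosterone pools and to 74.7, 102 and 173 in the placebo pools, with 2 of 5 called lower (40%, beside 5.25%, Retn and Fabp4). The 7 brown fat probes summed to 8.57, 8.28 and 5.29 in the testosterone pools and to 11.95, 7.19 and 10.7 in the placebo pools, with none called. Ucp1, the uncoupling protein that defines brown fat, had a mean of 2.11 in the testosterone pools and 2.29 in the placebo pools. The part of muscle or fat in the fall of Cox8b and Cox7a1 was not tested.

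Atp5j had 26.5, 23.0 and 21.0 in the submandibular testosterone pools, against 47.7, 35.2 and 36.1 in the placebo pools. The groups did not overlap and the difference was -0.74 ± 0.17 (adjusted p = 0.00761). The fall of Atp5j was called under all 35 alternative settings in the lacrimal gland (-1.12 to -0.76) and under all 35 in the submandibular gland (-0.85 to -0.61). Of the 11 other complex V probes none was called there, with differences between -0.27 for Atp5j2 and 0.24 for Atp5a1. Gabpa, which encodes the DNA-binding subunit of GABP, is Atp5j's neighbour in the RefSeq table, where both genes overlap at their starts. Gabpa differed by -0.54 in the lacrimal gland (adjusted p = 0.037) and by -0.13 in the submandibular gland (adjusted p = 0.708).

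Of complex II, Sdha, the flavoprotein that oxidises succinate, had 37.9, 36.9 and 45.1 in the submandibular testosterone pools and 41.9, 60.3 and 57.6 in the placebo pools, so that testosterone pool C lay above placebo pool A. Its difference of -0.40 ± 0.14 missed the threshold (adjusted p = 0.0621) and passed it under 6 of 35 alternative settings, among them quantile normalization. Sdhb, the iron-sulfur subunit, had 63.8, 62.9 and 3.50 in the testosterone pools and 74.4, 66.1 and 70.4 in the placebo pools (-1.52 ± 0.70, adjusted p = 0.172), a size set by the low value of pool C. Sdhc, a membrane anchor, had 25.7, 30.7 and 33.1 in the testosterone pools and 24.6, 28.0 and 30.9 in the placebo pools (0.10, adjusted p = 0.678). Of complex III, Cyc1, the haem protein cytochrome c1, had 20.5, 18.5 and 21.7 in the testosterone pools and 19.9, 26.0 and 30.05 in the placebo pools (-0.30 ± 0.13, adjusted p = 0.137). Cycs, which rose in the lacrimal gland, had 48.8, 56.1 and 59.4 in the submandibular testosterone pools and 69.2, 48.1 and 60.3 in the placebo pools, with overlap (-0.10, adjusted p = 0.73).

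In the meibomian gland 1 of the 56 members was called, Atp5k, the membrane subunit e of the ATP synthase (1.79%, against 0.59% of all tested probes, 0.469% higher and 0.121% lower). It had 82.1, 91.1 and 79.8 in the testosterone pools, against 56.6, 59.1 and 63.6 in the placebo pools. The pools were apart and the rise was 0.49 ± 0.10, or 1.41-fold (adjusted p = 0.0363). The call was lost under 14 of 35 alternative settings. Among them were the meibomian arrays alone, both quantile normalizations, cyclic loess and leaving out any meibomian array but testosterone pool C. It was also lost without lacrimal placebo pool B, lacrimal testosterone pool B or submandibular testosterone pool A, but not with every array scaled to 1 median.

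The meibomian members lay above 0 nearly throughout, with a median of 0.24 beside 0.06 over all tested probes, and 52 of 56 were positive (92.9%, against 59.5% of all tested probes). Testosterone pools lay wholly above placebo pools for 24 members and wholly below for 0 (42.9%, against 35.9% of all tested probes, 24.1% higher and 11.8% lower). By complex these 24 were 13 of 22 in complex I, 0 of 3 in complex II, 1 of 3 in complex III, cytochrome c, 4 of 15 in complex IV and 5 of 12 in complex V. Ndufa5 had 20.8, 15.8 and 12.2 in the testosterone pools, against 11.6, 11.2 and 10.1 in the placebo pools (0.53 ± 0.16, adjusted p = 0.143). Ndufb3, an accessory complex I subunit, had 6.77, 6.30 and 4.93 in the testosterone pools, against 4.74, 4.40 and 4.33 in the placebo pools (0.39 ± 0.14, adjusted p = 0.232). In both genes pool A was the highest and pool C came close to the placebo pools.

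That order of pools held for the members as a set. Their median difference from the placebo mean was 0.43 in testosterone pool A, 0.30 in pool B and 0.08 in pool C, beside 0.10, 0.07 and 0.03 over all tested probes. The 99th percentile of the arrays was 148, 123 and 106 in the same pools and 97.7 to 100.5 in the placebo pools. Among the brightest 10% of all tested probes the median difference was 0.26, and the 43 members there had 0.27. After quantile normalization or cyclic loess the members' median was 0.03 to 0.04, with 31 or 32 of 56 above 0 and 0 called. With array weights, which gave the arrays unequal weight in the fit, 26 members were called higher (46.4%, against 19% of all tested probes) and 0 lower (against 7.7%).

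**Figure D3:**
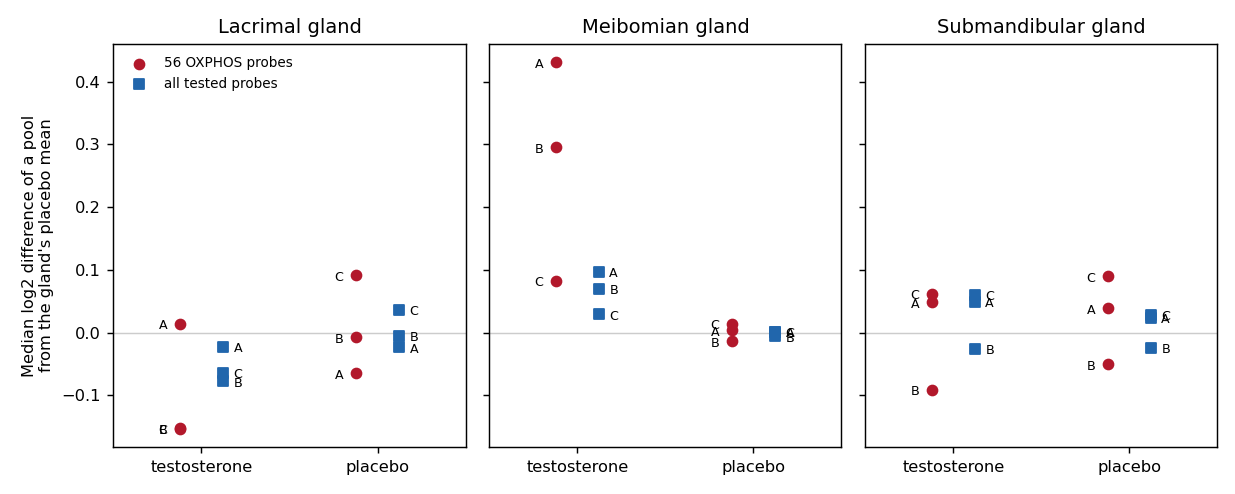
Median log2 difference of each pool (A, B, C) from its gland's placebo mean, over the 56 tested members (red circles) and over all tested probes (blue squares), testosterone left of placebo. In the meibomian gland testosterone pools A and B stand at 0.43 and 0.30 for the members, while pool C at 0.08 lies near the placebo pools.

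**Figure D4:**
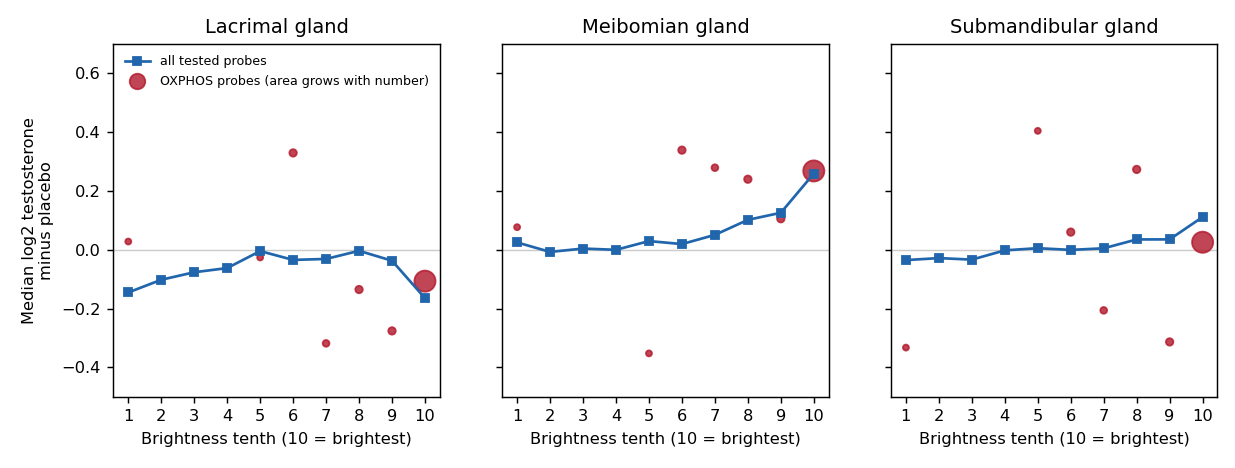
Median log2 testosterone minus placebo difference in 10 equal bins of brightness for all tested probes (blue) and for the members in each bin (red, with the area growing with their number), in each gland. In the meibomian gland both medians of the brightest bin, which holds 43 members, are close to 0.26.

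The differences between glands were tested themselves. By limma's moderated F test over the 3 glands the testosterone effect differed for 9 of 56 members (16.1%, against 27.7% of all tested probes). The glands' effects share no pools, but the 3 pairwise differences do share them and are given side by side. Lacrimal minus submandibular called 4 members (7.14%, against 24% of all tested probes), meibomian minus lacrimal 5 (8.93%, against 17.6%) and meibomian minus submandibular 3 (5.36%, against 7.4%). The 9 were Cox7a1, Atp5j, Ndufa5, Atp5l, Cycs, Cox8b, Cox8a, Ndufb3 and Atp5k. Cox7a1 moved opposite ways in the lacrimal and the submandibular gland, with differences of 0.55 and -0.68 there and 0.51 in the meibomian gland, so that the lacrimal effect exceeded the submandibular one by 1.23 (adjusted p = 0.00142) and the meibomian effect exceeded it by 1.19 (adjusted p = 0.00629). Atp5j had -0.92, 0.27 and -0.74 in the same order of glands, and the meibomian effect exceeded the lacrimal one by 1.19 (adjusted p = 0.00237) and the submandibular one by 1.01 (adjusted p = 0.0164). For Cycs the lacrimal effect exceeded the submandibular one by 0.92 (adjusted p = 0.0071). For Cox8b the meibomian effect exceeded the submandibular one by 1.77 (adjusted p = 0.0232), with meibomian pools at 19.4, 19.8 and 18.9 with testosterone and 19.7, 15.8 and 18.4 with placebo.

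The placebo groups show how the subunits differed between glands without androgen from the testes. The 3 pairs share groups, so their values are set side by side. Against the submandibular gland, the lacrimal gland had 23 of 56 members lower (41.1%, against 17.8% of all tested probes) and 4 higher (7.14%, against 26.2%), and the members' median was -0.26 beside 0.11 over all tested probes. The 4 higher were Cox6a2 (1.16), Atp5j (0.73), Ndufaf7 (0.40) and Cox7a2l (0.39). The call of Cox7a2l was lost under 18 of 31 alternative settings, and that of Ndufaf7 under 5. Against the lacrimal gland, the meibomian gland had 31 higher (55.4%, against 29.2%) and 4 lower (7.14%, against 38.7%), with a median of 0.44 beside -0.12. The 4 lower were Cox4i2 (-0.87), Cox7a2l (-0.64), Atp5g1 (-0.525) and Atp5j (-0.41). Cox4i2 lay below the 40th percentile in all 3 meibomian placebo pools, and the call of Atp5j was lost under 7 of 32 alternative settings. Against the submandibular gland, the meibomian gland had 17 higher (30.4%, against 30.6%) and 10 lower (17.9%, against 36%), with a median of 0.14 beside -0.08. Among these, Uqcrfs1 (0.57) and Ndufs4 (0.56) were higher, and Cox4i2 (-0.63) and Ndufc1 (-0.59) lower. After quantile normalization over all arrays, which moved the median of all tested probes to 0.01 for lacrimal minus submandibular and to -0.02 for meibomian minus lacrimal, the counts were 37 lower and 2 higher for the first pair and 38 higher and 2 lower for the second.

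**Figure D5:**
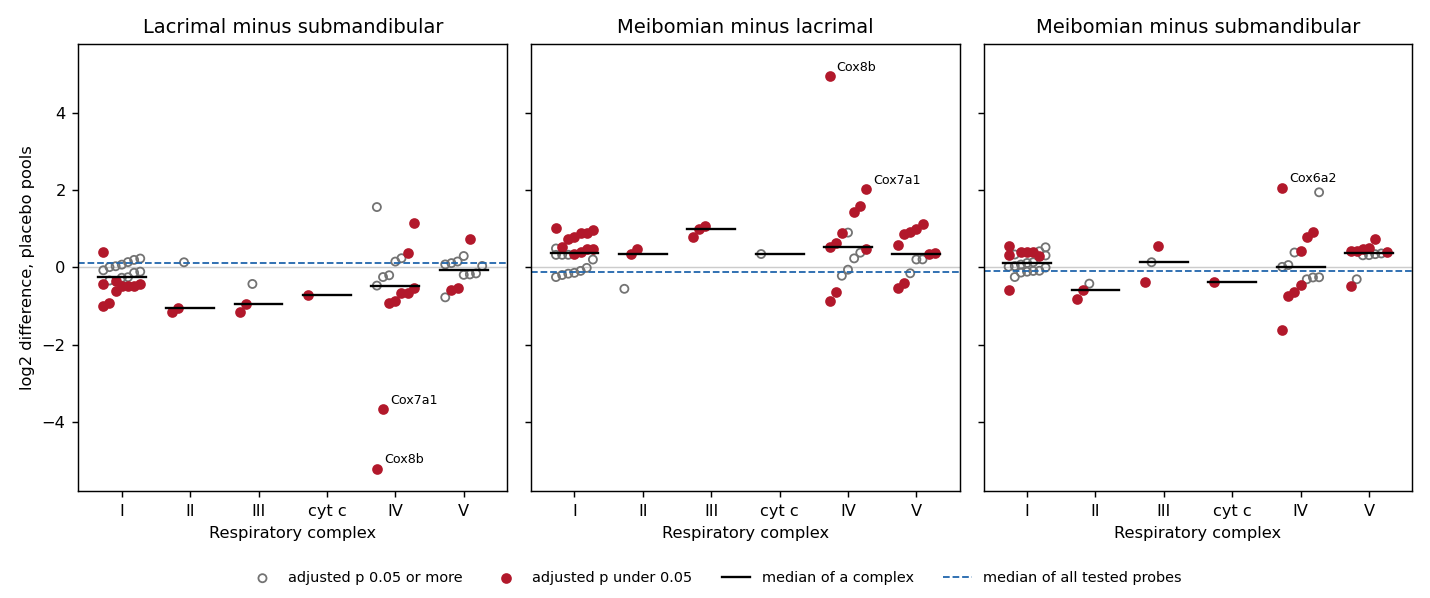
The log2 difference of every gland pair, in placebo mice, for the 56 tested members by respiratory complex, with called probes filled, those beyond 1.7 named, complex medians as black lines and the median of all tested probes dashed. Cox8b and Cox7a1 stand far below the other members in lacrimal minus submandibular, at -5.23 and -3.67.

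The muscle forms set the largest of these differences. Cox8b had 0.489, 0.351 and 0.381 in the lacrimal placebo pools, 19.7, 15.8 and 18.4 in the meibomian and 22.6, 13.5 and 32.6 in the submandibular ones. The meibomian and submandibular groups overlapped (-0.26, adjusted p = 0.482) and the lacrimal pools lay far below both, under the 40th percentile of their arrays. The lacrimal minus submandibular difference of -5.23 ± 0.32 was -4.33 with a 4-fold larger offset and -5.59 with a 4-fold smaller one. Cox7a1 had 0.367, 0.422 and 0.340 in the lacrimal, 2.08, 1.95 and 2.23 in the meibomian and 5.74, 6.11 and 9.06 in the submandibular placebo pools, with no overlap between any pair (adjusted p = 3.71e-07 or less). Its lacrimal minus submandibular difference of -3.67 was -2.81 with the larger offset, and its meibomian minus lacrimal difference of 2.04 was 1.37. Cox6a2 had another order, with 3.59, 2.57 and 3.23 in the meibomian, 1.63, 1.64 and 1.46 in the lacrimal and 1.15, 0.996 and 0.136 in the submandibular placebo pools. It was higher in the meibomian than in the submandibular gland by 2.07 ± 0.41 (adjusted p = 0.000346), or by 1.40 with the isolated low value read as missing. The lacrimal minus submandibular difference of Cox6a2 (1.16, adjusted p = 0.0318) was lost without that pool (0.49, adjusted p = 0.176). Marker lists differed between the placebo glands too, not always in the order of the muscle forms. In lacrimal minus submandibular placebo glands, 0 of 5 tested brown fat genes were higher and 4 lower (80%, beside 17.8% of all tested probes, median -1.92), and 0 of 5 white fat genes were higher and 3 lower (60%, median -2.56). The 7 brown fat probes summed to 3.02 to 3.32 in the lacrimal, 192 to 201 in the meibomian and 7.19 to 11.95 in the submandibular placebo pools. In these lacrimal, meibomian and submandibular pools, 5, 4 and 2 of the 7 probes had no value above the array's 40th percentile. The meibomian sum thus rests on the few remaining probes. The 5 white fat probes summed to 14.5 to 18.6, 58.3 to 63.0 and 74.7 to 173 in the same order of glands. In meibomian minus submandibular, 3 of the 5 tested brown fat genes were higher (60%, beside 30.6%) and 2 lower (40%, beside 36%), while the Cox8b pools overlapped. Of 20 skeletal muscle genes, 2 were higher (10%, beside 26.2%) and 3 lower (15%, beside 17.8%) in lacrimal minus submandibular placebo glands (median -0.30). In the meibomian gland 17 of the 20 were higher and 1 lower than in the lacrimal gland (85% higher, beside 29.2%), and 19 higher and 1 lower than in the submandibular gland (95% higher, beside 30.6%). Cox7a1 went the other way in meibomian minus submandibular, at -1.63. The part of muscle or fat in these differences was not tested.

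Of the 6 complex II and III members, 4 were lower in the lacrimal than in the submandibular gland, 2 of 3 in each complex (66.7%, beside 17.8% of all tested probes). Sdha had 23.98, 25.3 and 21.6 in the lacrimal placebo pools, against 41.9, 60.3 and 57.6 in the submandibular ones (-1.15 ± 0.14, adjusted p = 3.36e-06), and 30.2, 29.4 and 30.2 in the meibomian pools. Sdhc had 11.7, 13.4 and 14.5 in the lacrimal, against 24.6, 28.0 and 30.9 in the submandibular placebo pools (-1.07 ± 0.13, adjusted p = 6.8e-06). Both were also lower in the meibomian than in the submandibular gland (Sdha -0.81, Sdhc -0.59). Sdhb differed by 0.13 between lacrimal and submandibular glands and was not called (adjusted p = 0.896). Cyc1 had 10.8, 11.7 and 10.95 in the lacrimal, against 19.9, 26.0 and 30.05 in the submandibular placebo pools (-1.15 ± 0.13, adjusted p = 2.04e-06). Uqcrb, a small complex III subunit, had 52.3, 46.9 and 57.3 in the lacrimal, against 86.7, 111 and 103 in the submandibular pools (-0.94 ± 0.13, adjusted p = 2.05e-05), and Uqcrfs1, the Rieske iron-sulfur protein, differed by -0.43 ± 0.17 (adjusted p = 0.0546). All 3 complex III members were higher in the meibomian than in the lacrimal gland (100%, beside 29.2% of all tested probes), with differences of 0.78 to 1.07. The largest, that of Uqcrb, was 1.91 after quantile normalization over all arrays, and Uqcrb lay at 0.776 to 0.805 of the array maximum in the meibomian placebo pools.

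Of complex I, 9 of 22 members were lower (40.9%, beside 17.8% of all tested probes) and 1 higher in the lacrimal than in the submandibular gland, with Ndufa1 the largest (-0.99 ± 0.17, adjusted p = 0.000136), and 11 of 22 were higher (50%, beside 29.2%) and 0 lower in the meibomian than in the lacrimal gland. Complex IV had 7 of 15 lower (46.7%) and 2 higher in the lacrimal than in the submandibular gland. Its common subunits Cox8a and Cox5b, a zinc-binding subunit, had the highest levels in the meibomian gland. Cox8a had 69.5, 63.6 and 76.1 in the meibomian placebo pools, against 21.4, 21.4 and 25.8 in the lacrimal and 34.2, 35.2 and 40.05 in the submandibular ones, no group overlapping another. It was higher in the meibomian gland by 1.60 ± 0.12 than in the lacrimal (adjusted p = 3.85e-09) and by 0.93 ± 0.12 than in the submandibular gland (adjusted p = 3.39e-06). Cox5b was higher by 1.44 and 0.78. Cox6a1 had 112, 126 and 130 in the meibomian placebo pools, against 214, 193 and 213 in the submandibular ones, a difference of -0.75 that became 0.14 with no call after quantile normalization over all arrays. Its meibomian values lay at 0.829 to 0.912 of the array maximum, against 0.286 to 0.330 in the submandibular pools, so the direction for Cox6a1 is not settled.

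In complex V, 2 of 12 members were lower in the lacrimal than in the submandibular gland (Atp5k -0.58, and Atp5pb, the stator subunit b, -0.54), which is 16.7% beside 17.8% of all tested probes, and 1 was higher (8.33%, beside 26.2%). The 1 was Atp5j, at 0.73 ± 0.17 (adjusted p = 0.00229), which was not called after quantile normalization (0.32, adjusted p = 0.0775). Against the submandibular gland, 6 of the 12 (50%, beside 30.6% of all tested probes) were higher in the meibomian gland (Atp5c1, Atp5g2, Atp5j2, Atp5k, Atp5md and Atp5o, at 0.41 to 0.73) and 1 lower (Atp5g1, -0.49). Atp5a1, the alpha subunit, was higher in the meibomian than in the lacrimal placebo group by 1.12 ± 0.36 (adjusted p = 0.0114), and by 0.44 with the isolated low value of lacrimal pool C (11.8, against 50.9 and 48.2 in pools A and B) read as missing.

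Other genes of the mitochondrion were counted from lists, and their shares are to be read beside those of all tested probes (13.3% higher and 14.8% lower in the lacrimal gland, 8.54% and 5.25% in the submandibular gland, 0.469% and 0.121% in the meibomian gland). Of 16 citric acid cycle genes, 2 fell and 0 rose with testosterone in the lacrimal gland (12.5%, Pcx -0.63 and Pdha1 -0.70) and 2 fell and 0 rose in the submandibular gland (12.5%, Suclg2 -0.55 and Pcx -0.50). Of 47 mitochondrial ribosomal proteins, 8 fell (17%) and 1 rose (2.13%) in the lacrimal gland and 4 fell (8.51%) and 1 rose (2.13%) in the submandibular gland. Of 18 import genes 2 fell (11.1%) and 1 rose (5.56%) in the lacrimal gland, and of 11 assembly and haem factors 3 fell (27.3%) and 1 rose (9.09%) there, the riser being Bcs1l, which inserts the Rieske protein into complex III (1.08). In the meibomian gland, where 0.59% of all tested probes were called, 0 genes of any of these lists were called in either direction.

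Of 13 tested regulators of mitochondrial genes 4 fell (30.8%, beside 14.8% of all tested probes) and 1 rose (7.69%, beside 13.3%) in the lacrimal gland. Those that fell were Tfb2m, a mitochondrial transcription factor (-1.10), Esrra, the receptor ERR alpha (-0.90), Nfe2l2 (-0.60) and Gabpa (-0.54), and Ppard rose (0.59). Nfe2l2, an activator of antioxidant genes, rose in the submandibular gland (0.69). Of 9 carriers 3 fell (33.3%) and 0 rose in the lacrimal gland, and 2 rose (22.2%, beside 8.54%) and 1 fell (11.1%, beside 5.25%) in the submandibular gland. Among them Slc25a4, which exchanges ADP for ATP and is the chief such carrier of striated muscle, had 75.8, 60.4 and 82.6 in the submandibular testosterone pools, against 44.8, 33.4 and 37.7 in the placebo pools. It rose there by 0.91 (adjusted p = 0.000387, pools apart), opposite to Cox8b and Cox7a1, and fell by 0.69 in the lacrimal gland. Ckmt1, the mitochondrial creatine kinase, likewise rose by 0.87 in the submandibular gland and fell by 0.79 in the lacrimal gland, and Vdac1 fell by 0.54 in the submandibular gland. Of 15 glycolysis genes 2 rose in the lacrimal gland (13.3%, Hk1 1.18 and Ldha 0.50), and 14 were higher in the meibomian than in the lacrimal placebo group (93.3%, beside 29.2% of all tested probes), with a median of 1.87. Of 55 cytosolic ribosomal proteins, whose probes were also bright, 38 fell (69.1%, beside 14.8%) and 1 rose (1.82%, beside 13.3%) in the lacrimal gland, and 0 were called in the other glands. Smooth muscle and myoepithelial markers with a probe (4) all fell in the lacrimal gland (100%, beside 14.8% of all tested probes). All 4 rose in the submandibular gland (100%, beside 8.54%). Of 2 granular tubule markers with a probe, Egf rose in the submandibular gland (2.95), which is 50% beside 8.54%. Of 7 leukocyte markers 1 rose and 1 fell in the lacrimal gland (14.3% each) and 1 fell in the meibomian gland (14.3%, beside 0.121%).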

How the data were processed

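RNA of 18 gland pools was measured on 1-colour arrays. The authors deposited linear intensity values, 1 per probe. Background subtraction and scaling by the authors are not given in the sources used here. Each array's median lay between 0.929 and 0.952, and no further scaling was applied. A value of -1 (37 to 118 probes per array) was read as no value and other values below 0 as 0. Values were changed to log2(value + 0.174), the offset being the 10th percentile of positive values. Of 10500 probes, 146 were dropped because of missing values, and another 2891 were dim (not above the 40th percentile on at least 3 arrays).

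One limma 3.58.1 model (R 4.3.3) took the 18 arrays, with group means and a variance trend (12 residual degrees of freedom). The number of arrays limits the precision. The fit was tested on simulated data. GEO's platform annotation gave a single gene to 8983 probes, several genes to 1 and no gene to 1516, and symbols were checked in a RefSeq table (0 changed). Members and lists were chosen with earlier results of these data known. Named with values were the muscle forms, Sdh probes, Cyc1, Cycs, per gland up to 8 rises and 8 falls among called members, per placebo pair the 6 largest called differences each way, and members with the largest F. Some others (Ndufa3, Ndufa4, Ndufb3, Atp5b, Cox7a2 and the genes of the lists) were chosen after their values were seen. The letters were not taken to pair the pools: residual correlations of pools with 1 letter ran from -0.10 to 0.13 within a gland and from -0.07 to 0.16 between glands. Alternatives were other offsets, filters, normalizations, array weights, each gland alone, a replicate block, other member sets and leaving out each array, and 2 were added after seeing the data. The other member sets leave the fit of a single gene unchanged but are counted among its alternatives. Promoters were searched in Python 3.11.15, and figures drawn with matplotlib 3.10.9.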

Additional observations from a re-analysis of the deposited data

Results flagged for a closer look

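The testosterone effect differed between the 3 glands for 9 members by limma's moderated F test over all tested probes. The adjusted p was 0.00143 for Cox7a1, which was higher in the lacrimal and lower in the submandibular gland with testosterone, and 0.0198 for Cox8b, the other muscle form called in the submandibular gland. It was 0.00273 for Atp5j, lower in the lacrimal and submandibular glands, and 0.00955 for Atp5l and 0.00814 for Ndufa5, lower in the lacrimal gland. It was 0.0176 for Cycs and 0.026 for Cox8a, higher in the lacrimal gland. It was 0.0439 for Atp5k, which was called in the meibomian gland, and 0.0438 for Ndufb3, which was called in no gland on its own (lacrimal -0.25, meibomian 0.39, submandibular -0.14). For Cox7a1, all 3 lacrimal placebo values lay below the 40th percentile of their array. Its lacrimal rise was 0.31 with no call at a 4-fold larger offset.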

How the results depend on the processing

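Of 43 called differences of named members, 27 kept their call under every alternative run and 42 kept their direction; the exception was Cox6a1 in meibomian minus submandibular placebo glands, at 0.14 after quantile normalization over all arrays. The lacrimal members called lower (3) numbered 5 with the gland alone, 6 and 7 after quantile normalization over all arrays and within the gland, and 5 with isolated low values read as missing and without meibomian testosterone pools A and B, and 2 to 5 when 1 array was left out; those called higher (4) numbered 2 to 4. The split of the lacrimal calls was 57.1% higher as deposited, 40% and 36.4% after the quantile normalizations, 62.5% after loess, 37.5% with the gland alone, 44.4% with isolated low values missing and without meibomian pools A and B, 42.9% with array weights, 50% with a filter at the array median, and 28.6% (without lacrimal testosterone pool A) to 60% when 1 array was left out. The meibomian members called higher (1) numbered 0 with the gland alone, with no filter, after both quantile normalizations and loess, and without pools A and B, 26 with array weights and 0 to 3 when 1 array was left out (3 without testosterone pool C); 1 was called lower without pools A and B. The submandibular members called lower (3) numbered 1 with the gland alone and without the muscle forms, 6 after both quantile normalizations, 5 after loess and with array weights, and 2 to 6 when 1 array was left out (6 without placebo pool A); 1 was called higher with array weights, with isolated low values read as missing and without pools A and B, and 0 to 1 when 1 array was left out. The F test called 19 with array weights, 5 without pools A and B and 6 to 14 when 1 array was left out (14 without meibomian testosterone pool C). In the placebo glands, members higher in the lacrimal than the submandibular gland (4) numbered 2 after quantile normalization and with structural subunits only, and 1 to 4 when 1 array was left out; those lower (23) numbered 37 and those lower in the meibomian than the lacrimal gland (4) numbered 2 after quantile normalization.

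With the replicate letter as a block, 4 members were higher and 3 lower in the lacrimal gland, 1 higher in the meibomian gland and 3 lower in the submandibular gland, as without it. The replicate block moved no other count by over 1.5 times. It cost the call of Cox7a2l between placebo glands. No member had more than 1 probe, so that 1 probe per gene changes nothing. The values that changed sign were not called as deposited, apart from Cox6a1. Under quantile normalization over all arrays, within glands and under loess the meibomian testosterone differences were -0.047, -0.047 and -0.054 for Cox8b, -0.12, -0.12 and -0.16 for Sdha, -0.065, -0.061 and -0.080 for Sdhc and -0.12, -0.11 and -0.13 for Cyc1. The submandibular difference of Sdhc was -0.0101 and -0.00841 under the quantile normalizations. When 1 array was left out, Cox6a2 ranged from -0.15 to 0.10 in the lacrimal gland (highest without testosterone pool C), from -0.57 to 0.021 in the meibomian gland (highest without testosterone pool C) and from -0.26 to 0.78 in the submandibular gland (lowest without placebo pool C, and -0.26 too with that value missing), and Cycs from -0.24 to 0.019 in the submandibular gland (highest without placebo pool A). Without meibomian testosterone pools A and B, Sdha was -0.054 and Sdhb -0.013 in that gland. The causes were not tested. The isolated low values and the omission of pools A and B were chosen after seeing the data. With 3 pools a group, the smallest testosterone difference called was -0.47 (Ndufa5, lacrimal gland). Between placebo glands, differences as small as 0.39 (Cox7a2l) were called. A member without a call is therefore not shown to be unchanged. The meibomian arrays had a narrow range, and 4 members lay above 0.8 of an array's maximum there (Ndufa4, Uqcrb, Cox6a1 and Cox7b). Whether this range limited the levels of bright probes was not tested.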
